A study of Mus musculus with 14 samples.

Results

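The replication-dependent histone genes were taken as every gene of the count tables whose GRCm38 symbol begins with Hist1h, Hist2h, Hist3h or Hist4, which gave 70 of 53465 gene identifiers. They comprise 6 linker histone H1 genes, 20 H2A genes, 19 H2B genes, 12 H3 genes and 13 H4 genes, and 3 of them (2 H2A and 1 H2B) are annotated as pseudogenes. The rule uses names alone, not measured values.

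The core histones H2A, H2B, H3 and H4 form the spool around which DNA is wound, and linker histone H1 sits where the DNA enters and leaves it. Replication-dependent histone genes are transcribed mainly while a cell copies its DNA, are mostly without introns, and end in a stem-loop that is cleaved and bound by a dedicated protein in place of a poly(A) tail. Neurons no longer divide, and adult cortex therefore relies mostly on replication-independent variants whose messages are polyadenylated, although some genes of the replication-dependent family are also known to give polyadenylated messages in cells that do not divide.

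RNA was sequenced from the anterior cingulate cortex of 2 inbred strains, AKR/J (here AKR) and C57BL/6NJ (here B6N). The naive groups hold 4 libraries per strain, and the other groups hold 3 per strain, taken after observational fear conditioning (OFL), in which a mouse watches another receive shocks, and the series title concerns ARNT2 and somatostatin interneurons. The labels name no transgene, give no age and do not say how long after the procedure the tissue was taken or whether each library is 1 animal. Total RNA was taken from tissue that mixes all cortical cell types, and in such bulk samples fewer cells of a type and less RNA per cell cannot be told apart.

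Total counts were 19073921 to 25780227 per naive library and 13487311 to 14526253 per OFL library. Naive and OFL libraries come from 2 separate count tables, so the condition and the table cannot be told apart, and every OFL minus naive value below carries that limit. The 10 listed marker genes of excitatory cortical neurons summed to 4828 to 5369 CPM in naive libraries and 2412 to 2763 CPM in OFL libraries, where CPM stands for counts scaled to a common library size, here after TMM scaling. The choroid plexus and ependyma markers summed to at most 10.8 CPM in any library, with Ttr, the defining transcript of choroid plexus, at a mean of at most 0.856 CPM in a group.

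The 3' stem-loop that marks this family was found in an annotated transcript of 44 of the 70 genes, 21 to 58 bases (median 31) after the stop codon. Its letters differ by histone type, and the forms are given with 5 bases on either side, in capitals for the 16 bases of the stem-loop (6 paired bases, 4 loop bases, 6 paired bases), as in the GENCODE transcripts of GRCm38.
Hist1h1e: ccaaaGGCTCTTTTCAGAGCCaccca
Hist2h2ac: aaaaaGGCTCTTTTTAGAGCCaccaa
Hist1h3e: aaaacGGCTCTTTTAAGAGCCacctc
Hist1h4d: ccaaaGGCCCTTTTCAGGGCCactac
Hist1h4i: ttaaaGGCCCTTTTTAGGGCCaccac
Hist1h4b: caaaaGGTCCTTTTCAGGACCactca

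The form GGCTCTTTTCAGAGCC was the most common, in 26 genes of the types H1, H2A, H2B and H3. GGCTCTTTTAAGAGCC was found in 6 genes and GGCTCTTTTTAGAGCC in Hist2h2ac alone. The 11 H4 genes with a stem-loop carried other letters in the stem, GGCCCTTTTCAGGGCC in 7, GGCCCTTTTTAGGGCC in 2 and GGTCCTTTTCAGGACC in 2, and no H1, H2A, H2B or H3 gene carried these. No match in the other 26 genes says only that these letters are not in their annotated transcripts, many of which end near the stop codon.

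The genes lie in clusters: 56 on chromosome 13, 10 within 50.3 kb on chromosome 3, 3 within 7.91 kb on chromosome 11, and Hist4h4 on chromosome 6. Many are near copies of each other. In 15 genes under 10% of the 31-base stretches of the transcripts occur in no other annotated gene, and 11 genes have at least 80% of such stretches. A read from such a stretch fits more than 1 copy, so single values of the copied genes are uncertain. All 20 H2A genes, and 1 gene each of H2B, H3 and H4, have exonic bases under an annotated exon of the opposite strand, and whether reads were counted by strand is not given in the sources used here.

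Histone genes held a small share of each library, and that share was larger after OFL than in naive libraries of the same strain. It was 0.00457%, 0.00455%, 0.00477% and 0.00461% of counts in the 4 naive AKR libraries and 0.00634%, 0.00615%, 0.00612% and 0.00615% in the 4 naive B6N libraries. It was 0.0350%, 0.0375% and 0.0365% in AKR after OFL and 0.0362%, 0.0357% and 0.0366% in B6N after OFL. The strains did not overlap in naive libraries, where B6N was higher, and they overlapped after OFL. Between 29 and 46 of the 70 genes had a read in a naive library and between 57 and 60 in an OFL library, although the OFL libraries had fewer reads in all. No read of 5 genes was counted in any of the 14 libraries.

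The types differed in how far their summed levels lay apart, which was not tested. Summed over its genes, H4 was at 2.59 to 3.15 CPM in naive AKR and 4.31 to 4.89 CPM in naive B6N, against 174 to 191 CPM in AKR and 186 to 188 CPM in B6N after OFL. H3 was at 0.466 to 1.45 CPM over the 8 naive libraries and 25.2 to 32.5 CPM over the 6 OFL libraries. H1 was at 6.34 to 11.999 CPM and 64.5 to 71.4 CPM. H2A and H2B moved least in these sums. H2A was at 5.32 to 9.72 CPM in naive and 23.8 to 26.4 CPM in OFL libraries, and H2B was at 27.9 to 39.2 CPM and 53.3 to 62.5 CPM. In no type did a naive library reach the level of an OFL library. H2B held 61.6% of the histone reads in naive AKR and 59.1% in naive B6N, and H4 held 6.28% and 7.23%. After OFL, H4 held 50.6% and 51.8%, and H2B 15.7% and 15.4%.

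**Figure D1:**
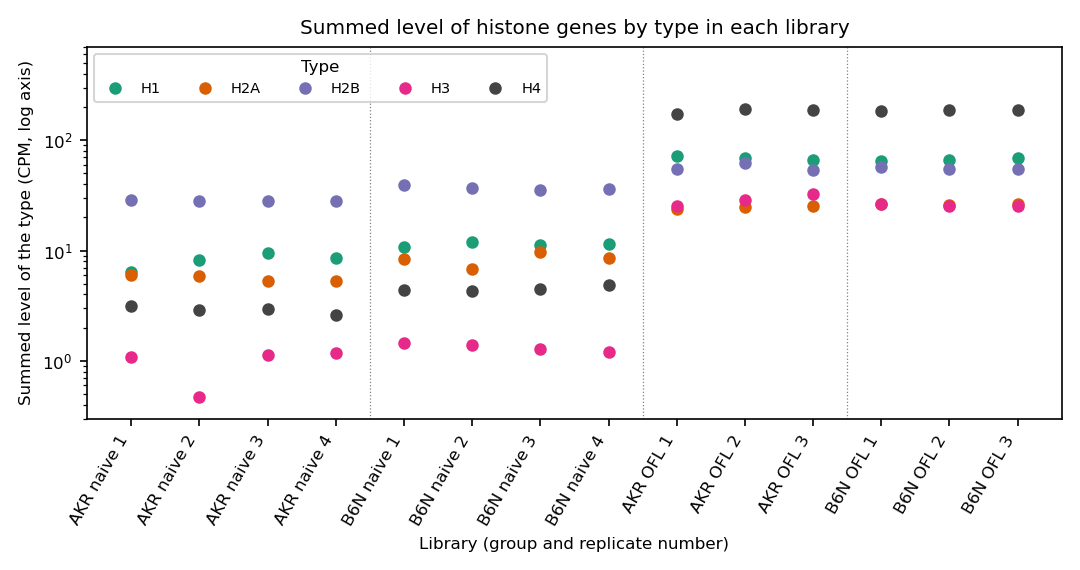
Summed level of the genes of each histone type (CPM, log axis) in each of the 14 libraries, 1 point per type and library, with dotted lines between the groups. H2B is highest in all 8 naive libraries, and H4, at 174 to 191 CPM, is highest in all 6 OFL libraries.

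The comparison of OFL with naive libraries was made in each strain. Read over all 70 genes, 51 in AKR had every OFL library above every naive library, 1 had every OFL library below, 4 overlapped and 14 had at most 3 reads in either group. Of all 27326 genes with over 3 reads in a group, 34.0% lay above without overlap in AKR and 32.4% below. In B6N 50 of the 70 genes lay above, 3 below and 6 overlapped, and 11 had at most 3 reads in either group, beside 34.0% above and 32.1% below for all 27651 genes. No naive read was found for 11 of the AKR genes and 10 of the B6N genes. These genes clear the floor only through OFL and could not lie below, so the counts here are descriptions. Among them Hist2h2aa2, with 8 OFL reads in B6N, overlapped in that strain.

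In edgeR's quasi-likelihood test 50 genes passed the expression filter. In AKR 47 were called higher and 2 lower at an adjusted p under 0.05, where 39.8% of all 20291 genes tested were called higher and 38.8% lower (78.7% in either direction). In B6N 45 were called higher and 1 lower, beside 40.0% and 38.4% (78.4% in either direction). However, 39 of the 50 passed the filter only through the OFL libraries and had to differ, so these counts are not read further, and fitted differences of those 39 genes are descriptions. The 11 genes that also passed within naive libraries are Hist1h1c, Hist1h1e, Hist1h2ac, Hist1h2bc, Hist1h2be, Hist1h4i, Hist2h2be, Hist2h3c2, Hist2h4, Hist3h2a and Hist3h2ba. Of these, 8 were higher and 2 lower in AKR (median log2 1.54), and 6 were higher and 1 lower in B6N (median 1.15). The median over all genes tested was -0.01 in AKR and 0.00 in B6N.

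**Figure D2:**
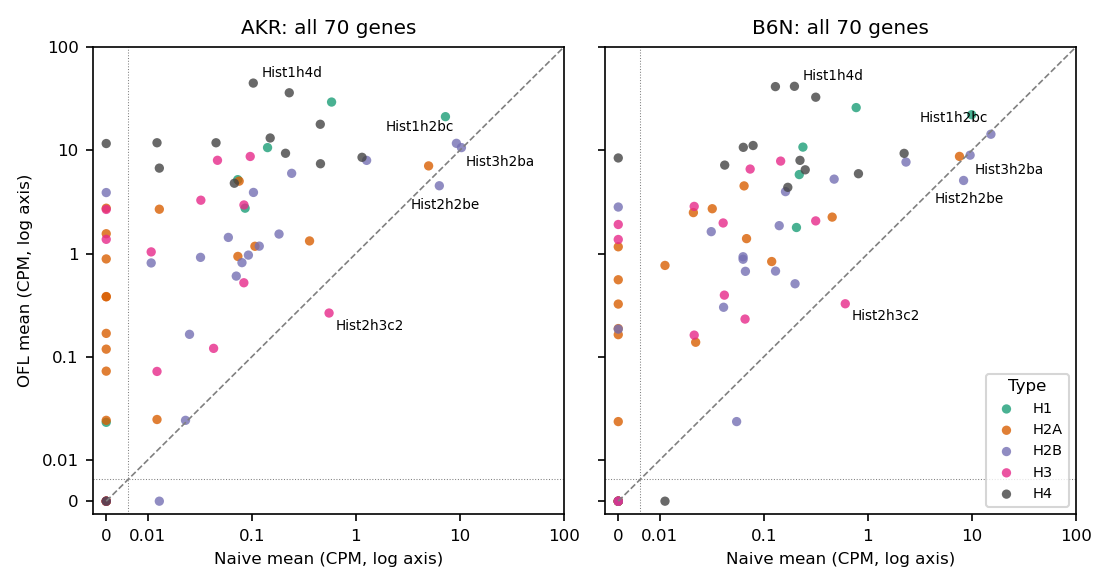
Mean level after OFL against mean level in naive libraries (CPM, log axes, with genes at 0 drawn below the dotted line), 1 point per histone gene and 1 panel per strain, coloured by type, with the dashed line at equal levels. H4 genes such as Hist1h4d lie far above the line, while Hist3h2ba and Hist1h2bc lie near it and Hist2h2be and Hist2h3c2 below it.

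Among the linker histone genes Hist1h1c (chromosome 13, 23738808 to 23740367, plus strand), which encodes the subtype H1.2, was the most read in naive cortex. It stood at 6.15, 8.14, 7.56 and 7.22 CPM in naive AKR and at 21.7, 22.0 and 19.8 CPM after OFL. In B6N it stood at 9.44, 10.48, 9.87 and 10.003 CPM in naive libraries and at 22.2, 22.4 and 21.7 CPM after OFL. All OFL libraries lay above all naive libraries, and the change was 1.54 in AKR (log2, SE 0.08, edgeR adjusted p = 2.7e-15) and 1.15 in B6N (SE 0.08, edgeR adjusted p = 3.2e-13).

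Hist1h1e (H1.4; chromosome 13, 23620629 to 23622558, minus strand) changed more. It had 3, 2, 24 and 20 reads in the naive AKR libraries and 420, 392 and 405 in AKR after OFL. In B6N it had 18, 20, 17 and 15 naive reads and 361, 371 and 381 reads after OFL. The groups were far apart, by 5.67 in AKR (log2, SE 0.21, edgeR adjusted p = 5.8e-19) and 5.06 in B6N (SE 0.20, edgeR adjusted p = 2.2e-18). Hist1h1e shares 496 exonic bases with Hist1h2be on the same strand, so their reads cannot be fully told apart. Hist1h1d, encoding H1.3 and not among those 11 genes, went from 12 naive reads to 441 in AKR, a ratio of 76.3 (95% counting interval 43.2 to 149), and from 22 to 461 in B6N, a ratio of 44.4 (29.0 to 71.6). The testis-specific linker gene Hist1h1t, chosen after its values were seen, had 1 read over the 14 libraries.

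H2A genes other than Hist3h2a and Hist1h2ac had few or no reads in naive libraries. The most read was Hist3h2a (chromosome 11, 58954685 to 58956830, plus strand). Hist3h2a stood at 5.07, 5.47, 4.61 and 4.89 CPM in naive AKR and at 8.01, 6.62 and 6.55 CPM after OFL, without overlap (log2 0.49, SE 0.13, edgeR adjusted p = 0.0011). In B6N its 7.67, 6.12, 8.84 and 7.77 CPM in naive libraries overlapped the 8.57, 9.31 and 8.28 CPM after OFL (log2 0.20, SE 0.11, edgeR adjusted p = 0.10; 0.0319 to 0.338 over the alternatives). Hist2h2ac (chromosome 3, 96220361 to 96220880, minus strand) had 3, 0, 3 and 0 reads in naive AKR and 59, 71 and 79 after OFL, and 2, 1, 1 and 2 reads in naive B6N against 57, 65 and 72 after OFL. From summed reads its ratio was 72.3 in AKR (95% counting interval 32.7 to 199) and 68.6 in B6N (30.9 to 189). Hist1h2ak went from 1 read in all naive AKR libraries to 112 after OFL, a ratio of 233 with a 95% counting interval of 40.9 to 9265. In B6N it went from 3 reads to 117, a ratio of 82.7 (27.6 to 407). These intervals cover counting error only. Hist2h2ab had no naive read in AKR and 114 reads after OFL, at least 78.9-fold higher against a floor of 3 reads over the naive group. Of their exonic bases, 138 of Hist3h2a and Hist1h2ak, 141 of Hist2h2ac and 303 of Hist2h2ab lie under exons of the opposite strand, which limits all 4 values. Hist3h2a also shares 708 of its 2146 exonic bases with Trim17 on the same strand, so their reads cannot be fully told apart.

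H2B genes divided into a few well read in naive cortex and many near 0. Hist3h2ba (chromosome 11, 58948920 to 58949533, plus strand) stood at 9.79, 11.2, 10.3 and 10.1 CPM in naive AKR and 11.3, 10.52 and 9.97 CPM after OFL, and at 10.46, 8.77, 9.48 and 9.75 CPM in naive B6N and 9.67, 9.38 and 7.86 CPM after OFL. Its groups overlapped in both strains (log2 0.03, SE 0.09, edgeR adjusted p = 0.76 in AKR; log2 -0.10, SE 0.10, edgeR adjusted p = 0.33 in B6N). Per kilobase of transcript it was the highest histone gene in naive libraries, at 16.9 CPM per kb in AKR and 15.7 in B6N, and Hist1h2bc followed at 8.01 and 13.2.

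Hist1h2bc (chromosome 13, 23684199 to 23692908, plus strand, 2 exons) stood at 9.79, 8.56, 9.53 and 9.17 CPM in naive AKR and at 10.2, 13.6 and 11.2 CPM after OFL. In B6N it stood at 15.5, 15.5, 14.8 and 15.2 CPM in naive libraries and at 14.7, 13.997 and 14.2 CPM after OFL. The OFL libraries lay above the naive ones in AKR (log2 0.34, SE 0.09, edgeR adjusted p = 0.0014) and slightly below them in B6N (log2 -0.09, SE 0.08, edgeR adjusted p = 0.30). Without AKR OFL replicate 2 the change in AKR was 0.21 with an edgeR adjusted p of 0.0503 (0.00034 to 0.0503 over the alternatives). Hist2h2be (chromosome 3, 96221119 to 96223738, plus strand) fell in both strains. It stood at 7.23, 6.15, 5.44 and 6.58 CPM in naive AKR and 4.15, 5.15 and 4.29 CPM after OFL, and at 8.30, 9.18, 7.70 and 8.11 CPM in naive B6N and 4.32, 5.32 and 5.66 CPM after OFL. All OFL libraries lay below all naive libraries of the same strain, by -0.48 in AKR (log2, SE 0.13, edgeR adjusted p = 0.0016) and -0.71 in B6N (SE 0.12, edgeR adjusted p = 7.9e-06). At the other end, Hist2h2bb had no naive read in either strain against 162 reads in AKR and 121 in B6N after OFL, at least 112-fold and 85.5-fold higher, and all of its 381 bases lie under an exon of the opposite strand.

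H3 genes were nearly unread in naive cortex. Hist1h3e (chromosome 13, 23561534 to 23562369, minus strand) had 4, 0, 2 and 2 reads in naive AKR and 114, 121 and 127 after OFL, and 3, 4, 4 and 2 reads in naive B6N against 122, 106 and 110 after OFL. From summed reads its ratio was 93.9 in AKR (47.2 to 219) and 55.1 in B6N (31.8 to 105). Hist1h3f shares 606 of its 31-base stretches with Hist1h3e, and its ratios were 173 (66.9 to 638) and 85.7 (41.1 to 215), so the split of reads between these copies is uncertain. Hist1h3i went from 3 naive reads to 137 in AKR, a ratio of 94.8 (31.8 to 465), and from 2 to 123 in B6N, a ratio of 130 (35.3 to 1089). Hist1h3h and Hist2h3b had no naive read in either strain. Hist1h3h was at least 39.4-fold higher in AKR and 41.7-fold higher in B6N after OFL, and Hist2h3b at least 76.8-fold and 58.0-fold. All 488 bases of Hist2h3b face an annotated exon on the other strand. Of its 31-base stretches 0.0% occur in no other annotated gene, beside 5.8% for Hist1h3h and 6.8% for Hist1h3i. The values of Hist2h3b, Hist1h3h and Hist1h3i are therefore uncertain as values of single genes.

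Hist2h3c2 went the other way (chromosome 3, 96238108 to 96239127, minus strand). It had 13, 8, 13 and 13 reads in naive AKR and 6, 4 and 1 after OFL, and 13, 18, 12 and 12 reads in naive B6N against 4, 4 and 6. In CPM its libraries overlapped in AKR and did not in B6N. The change was -1.02 in AKR (log2, SE 0.45, edgeR adjusted p = 0.039) and -0.88 in B6N (SE 0.41, edgeR adjusted p = 0.052). The call in AKR was lost under 8 of 20 alternatives (edgeR or DESeq2 adjusted p 0.0140 to 0.249), and without AKR OFL replicate 3, the library with 1 read, the change was -0.59. Of the 31-base stretches of Hist2h3c2, 35.8% occur in no other annotated gene, so its values are also uncertain as values of a single gene.

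H4 genes had the highest summed level after OFL. Hist1h4d (chromosome 13, 23581598 to 23582735, plus strand) had 0, 1, 3 and 5 reads in naive AKR and 5, 4, 4 and 5 in naive B6N. After OFL it stood at 44.8, 44.6 and 44.8 CPM in AKR, on 604 to 641 reads, and at 42.4, 41.7 and 40.8 CPM in B6N, on 576 to 618 reads. From summed reads its ratio of OFL to naive was 429 in AKR (95% counting interval 226 to 940) and 211 in B6N (133 to 357). Hist1h4h had 4 to 6 reads per naive AKR library and 457 to 536 after OFL, and 6 to 9 per naive B6N library and 434 to 494 after OFL, ratios of 156 (100.5 to 256) and 103 (71.2 to 154). Per kilobase Hist1h4h was the highest histone gene after OFL, at 76.7 CPM per kb in AKR and 69.5 in B6N. Hist1h4d followed in AKR at 39.3, and in B6N Hist1h4c, at 50.4, stood above Hist1h4d at 36.6. Hist1h4n had no naive read in AKR and 484 after OFL, at least 335-fold higher, and Hist1h4b, of which 223 bases lie under an exon of the opposite strand, had no naive read in B6N and 362 after OFL, at least 256-fold higher. Only 12.5% of the 31-base stretches of Hist1h4n and 22.9% of those of Hist1h4b occur in no other annotated gene. Their values are therefore uncertain as values of single genes. The lowest H4 ratios were those of Hist2h4, at 7.47 (5.96 to 9.42) in AKR and 4.21 (3.55 to 5.01) in B6N, and it had the most naive reads of the H4 genes.

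H2A and H2B genes often lie head to head and share 1 promoter region. Of 14 such pairs, each with at most 400 bases between the starts, all joined an H2A to an H2B gene, and in 8 pairs both genes were tested. The pair Hist2h2ac and Hist2h2be split in direction, and so did the values of Hist1h2ac and Hist1h2bc in B6N, where that of Hist1h2bc was not called. Hist1h2ac rose by 1.86 (SE 0.28, edgeR adjusted p = 1.0e-06) in AKR and 2.31 (SE 0.23, edgeR adjusted p = 7.4e-10) in B6N, while its partner Hist1h2bc changed by 0.34 and -0.09. The fitted difference of Hist2h2ac was 6.04 and 5.96 while Hist2h2be fell by 0.48 and 0.71. The whole stretch between the starts of each of these pairs is shown, 5' to 3' on the minus strand toward the H2A gene, from the RefSeq promoter table of GRCm38.p6. Capitals mark the TATA box letters TATAAA, the CCAAT box letters CCAAT and the octamer letters ATTTGCAT, on either strand.
Hist2h2ac and Hist2h2be, chr3:96220881-96221118: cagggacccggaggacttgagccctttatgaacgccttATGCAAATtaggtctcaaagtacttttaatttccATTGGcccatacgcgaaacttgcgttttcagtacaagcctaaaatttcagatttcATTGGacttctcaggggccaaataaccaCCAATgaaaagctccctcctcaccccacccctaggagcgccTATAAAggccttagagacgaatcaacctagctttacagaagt
Hist1h2ac and Hist1h2bc, chr13:23683949-23684198: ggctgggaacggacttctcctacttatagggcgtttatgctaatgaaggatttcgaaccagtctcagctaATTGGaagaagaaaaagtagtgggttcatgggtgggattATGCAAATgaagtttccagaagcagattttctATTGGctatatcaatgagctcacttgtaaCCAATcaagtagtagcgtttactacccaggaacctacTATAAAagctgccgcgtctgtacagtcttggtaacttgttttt

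Each stretch, of 238 and 250 bases, held 1 TATAAA, 3 CCAAT and 1 ATTTGCAT. Both pairs were picked for their split and no pair that moved together is shown, so these counts cannot be set against the split. Among the RefSeq promoters of the family (250 bases before to 50 after the start, matched for 62 genes), ATTTGCAT was found in 7 of 18 H2A and 7 of 16 H2B promoters and in none of the H1, H3 and H4 promoters, beside 1.74% of all 32851 promoters. CCAAT was found in all H1, H2A, H2B and H3 promoters matched and in 3 of 12 H4 promoters, beside 37.4% of all promoters. TATAAA was found in 35 of the 62, beside 13.6%. Both strands were searched, each motif on its own, so matches of different motifs may overlap. A match is a description of letters only.

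**Figure D3:**
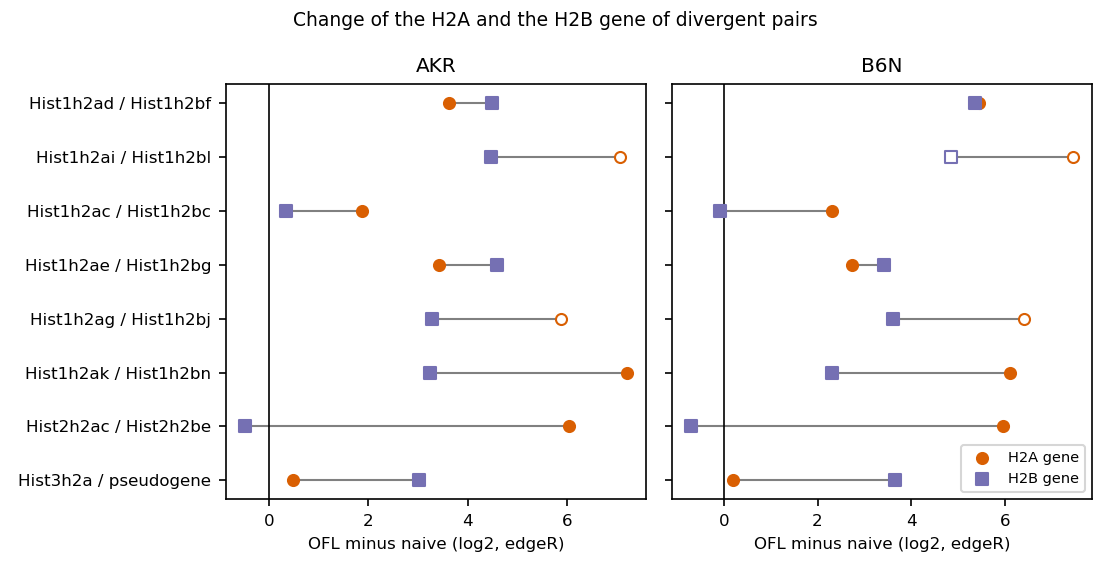
OFL minus naive difference (log2, from edgeR) of the H2A gene (circle) and the H2B gene (square) of the 8 head-to-head pairs with both genes tested, 1 panel per strain, with open symbols for genes that had no naive read in that strain, whose fitted value is no bound. Hist2h2be lies left of 0 in both panels while its partner Hist2h2ac lies near 6.

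The annotated 3' ends of the members differ. Of the 70 genes, 17 have a poly(A) signal (AATAAA or ATTAAA) within the last 50 bases of an annotated transcript, among them Hist1h1c, Hist2h2be, Hist3h2a, Hist3h2ba, Hist2h4 and Hist1h4i. These 17 held 71.6% of the histone reads in naive AKR and 66.9% in naive B6N, and 38.3% and 33.1% after OFL. Single genes went against that shift: the ratios of Hist1h4a and Hist1h4h, which have the signal, were over 100 in both strains, and those of Hist2h3c2, which has none, were 0.486 and 0.540. Hist1h2bc, also without the signal, had ratios of 1.27 in AKR and 0.938 in B6N. It held 797 of the 1128 naive AKR reads and 1391 of the 1893 naive B6N reads of the genes without the signal. The 22 genes with a stem-loop and at most 100 annotated bases after it held 1.97% of the histone reads in naive AKR and 23.2% after OFL, and 1.89% and 22.5% in B6N. The 22 genes with a stem-loop and more than 100 bases after it held 62.2% and 58.4% in AKR, and 58.6% and 60.6% in B6N. No test was made between these classes, since genes of this family share sequence and are not replicates.

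Other RNAs that carry no poly(A) tail also differed between naive and OFL libraries. Of 19 such RNAs found in the tables, 9 were tested and called higher after OFL in both strains, but only 1 of them was tested in the naive libraries, so the others passed the filter through OFL and had to differ. The 19 summed to 1.99 to 4.35 CPM in naive and 771 to 1030.4 CPM in OFL libraries. Rn7sk, the RNA that holds the elongation factor P-TEFb inactive, was at 1.40 to 3.47 CPM in the naive libraries and at 689 to 941 CPM in the OFL libraries. Scarna2, a guide RNA of Cajal bodies, was at 0.0987 to 0.346 CPM and 29.2 to 37.3 CPM. All libraries were made with the same kit per the labels, and the part of RNA without poly(A) tails in the histone result was not tested.

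Genes that act around histones were called in both directions, beside the 39.8% higher and 38.8% lower in AKR and 40.0% and 38.4% in B6N over all genes. Of 11 replication-independent histone genes, 3 were higher and 7 lower in AKR after OFL (median log2 -0.54) and 2 higher and 7 lower in B6N (median -0.49). H3f3a, encoding the replacement histone H3.3, rose by 1.12 (SE 0.06) in AKR and 1.15 (SE 0.05) in B6N, and H1f0, the linker histone of resting cells, fell by 0.76 (SE 0.06) and 0.49. Of 20 genes of histone message 3' end formation and decay, 9 were higher and 7 lower in both strains. Casp8ap2, a factor of histone locus bodies, rose by 1.25 (SE 0.07) in AKR and 1.14 (SE 0.07) in B6N. Npat, the coactivator of histone genes in S phase, rose by 0.70 (SE 0.05) and 0.91 (SE 0.05). Slbp, the stem-loop binding protein, which is outside the naming rule, rose by 0.34 (SE 0.06) and 0.45 (SE 0.06). The genes given with values from this list all rose, although 7 of the 20 were lower in each strain. Srrt in both strains and Sympk in AKR were also eligible by p, and their values are not given. Of 15 histone chaperones, 5 were higher and 5 lower in AKR and 4 higher and 5 lower in B6N, with Asf1a, which hands H3 and H4 to other chaperones, up by 1.51 (SE 0.12) and 1.64 (SE 0.11).

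Genes of DNA replication and division were called in both directions. The shares over all genes tested were 39.8% higher and 38.8% lower in AKR, and 40.0% and 38.4% in B6N. Of 25 S phase and cell cycle genes tested, 3 were higher and 10 lower in AKR after OFL (median log2 -0.44), and 3 higher and 8 lower in B6N (median -0.20). E2f1, an activator of S phase genes, fell by 1.33 (SE 0.09) in AKR and 1.34 (SE 0.10) in B6N. Ccnb1, a mitotic cyclin, rose by 2.06 (SE 0.23) and 1.57 (SE 0.22). Pcna, the sliding clamp of DNA polymerase, which is outside the naming rule for this comparison, fell by 0.28 and 0.24. Tyms in AKR and Ccne1 in B6N were also eligible by p, and their values are not given. Mki67, the marker of dividing cells, was at 1.43 to 2.92 CPM in naive and 1.26 to 1.93 CPM in OFL libraries. The summed level of the 28 listed genes was 158 to 174 CPM over naive and 126 to 148 CPM over OFL libraries. Markers of oligodendrocyte precursors, which divide in adult cortex, were mostly lower after OFL, with 7 of 9 lower and 1 higher in each strain. Cell type markers, read beside the same shares over all genes, were called in both directions. In AKR, 6 of 10 excitatory neuron markers were lower and 3 higher, 8 of 9 inhibitory neuron markers lower and 1 higher, 6 of 8 oligodendrocyte markers lower, 5 of 8 astrocyte markers lower and 1 higher, and 7 of 8 microglia markers lower and 1 higher. In B6N the lower and higher counts of the same lists were 7 and 3, 8 and 1, 3 and 2, 6 and 2, and 5 and 1. In each strain 5 of 8 endothelial and mural markers were lower and 1 higher, 4 of 6 striatum markers lower and 1 higher, and 3 of 5 blood cell markers higher. The astrocyte sum was 3085 to 3766 CPM in naive and 4028 to 4827 CPM in OFL libraries, and the blood cell sum was 18.9 to 55.7 CPM and 35.2 to 97.7 CPM. The part of these in the histone values was not tested.

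In naive cortex the comparison of strains asked which histone genes differ before the procedure. Of 11 genes tested with edgeR, 7 were lower in AKR than in B6N and 0 were higher, where 19.5% of all 17645 genes tested were called lower and 18.3% higher (37.8% in either direction). Reads of both strains were processed with GRCm38. The part of sequence differences between the strains in the AKR minus B6N values, here and after OFL, was not tested. At an unadjusted p under 0.05 the counts were also 7 and 0, and DESeq2 called 6 lower and 0 higher. The median log2 difference of the 11 was -0.45, beside 0.01 over all genes tested. The 7 were Hist1h1c, Hist3h2a, Hist1h2bc, Hist1h2be, Hist2h2be, Hist1h4i and Hist2h4, so they came from every type except H3, of which only 1 gene was tested.

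Hist1h2bc, whose libraries are given above, differed most firmly, at 9.26 ± 0.534 CPM in AKR against 15.2 ± 0.354 CPM in B6N (SD, n = 4 each; log2 -0.72, SE 0.07, edgeR adjusted p = 1.8e-07). Hist2h4 stood at 1.43, 1.27, 0.984 and 0.908 CPM in AKR and 1.89, 2.11, 2.57 and 2.36 CPM in B6N. Its groups did not overlap (log2 -0.95, SE 0.18, edgeR adjusted p = 0.00046). Hist1h2be stood at 0.935, 1.27, 1.71 and 1.17 CPM in AKR and 3.07, 2.47, 2.22 and 1.55 CPM in B6N, with 1 AKR library inside the range of B6N (log2 -0.89, SE 0.22, edgeR adjusted p = 0.0039). Hist3h2a differed by -0.59 (SE 0.11, edgeR adjusted p = 0.00040), Hist1h1c by -0.45 (SE 0.09, edgeR adjusted p = 0.00059) and Hist2h2be by -0.39 (SE 0.10, edgeR adjusted p = 0.0038), each without overlap between the strains. Hist1h4i, with 7 to 14 reads per AKR library and 11 to 24 per B6N library, differed by -0.82 (SE 0.27, edgeR adjusted p = 0.022), and this call was lost under 5 of 14 alternatives (adjusted p 0.0109 to 0.0889). Hist3h2ba was at similar levels in the strains (log2 0.11, SE 0.08, edgeR adjusted p = 0.30), which does not show that they were equal.

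The smaller linker genes gave uneven values among the naive AKR libraries. Hist1h1a, Hist1h1b, Hist1h1d and Hist1h1e (the sum was chosen after its values were seen) together had 4 and 2 reads in replicates 1 and 2 and 38 and 30 reads in replicates 3 and 4, against 27 to 36 in the B6N libraries. Hist1h1e accordingly showed no call between the strains (log2 -0.43, SE 0.46, edgeR adjusted p = 0.51). H4 reads did not divide these libraries, at 64, 68, 57 and 60. Mki67 was at 1.43 and 1.78 CPM in replicates 1 and 2 and 2.64 and 2.55 CPM in replicates 3 and 4. In naive B6N replicate 2 Mki67 was at 1.71 CPM, beside 34 reads of the same linker genes. Top2a, another listed cell cycle gene, was at 0.541, 0.466, 1.35 and 0.606 CPM in the naive AKR libraries. The part of these genes in the linker values was not tested. Blood cell markers also differed between the strains: 4 of 5 were lower in naive AKR, and they summed to 18.9 to 33.2 CPM in AKR and 47.5 to 55.7 CPM in B6N, with Hba-a2 at a mean of 0.153 CPM in AKR. Their part in the strain difference of the histone genes was not tested.

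**Figure D4:**
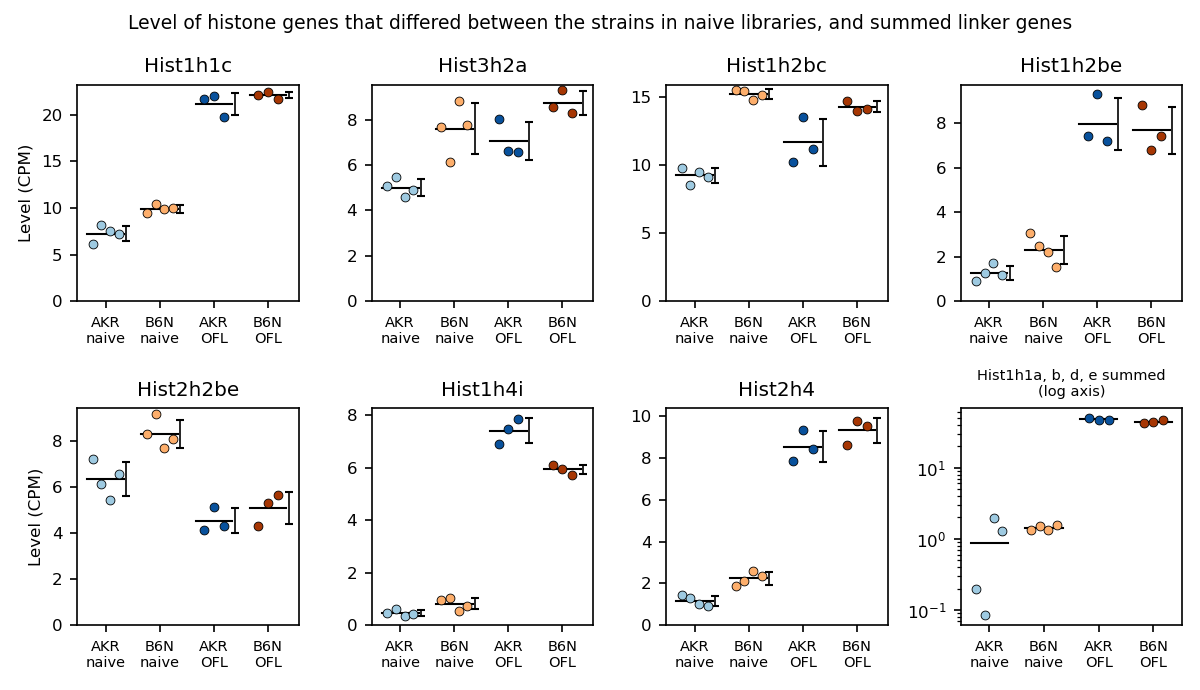
Level (CPM) in each library of the 7 histone genes called lower in naive AKR than in naive B6N, and, on a log axis, the summed level of Hist1h1a, Hist1h1b, Hist1h1d and Hist1h1e, with the mean as a line and the SD as a bar (no SD in the last panel). Naive AKR replicates 1 and 2 lie under the other naive libraries in the summed linker genes, while Hist1h2bc separates all naive AKR from all naive B6N libraries.

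The strains were also compared after OFL. Of 45 histone genes tested, 2 were higher and 3 lower in AKR, where 7.50% of all 17994 genes tested were called higher and 8.86% lower (16.4% in either direction), so the share of histone genes called was not above that of all genes. The median log2 difference was 0.13, beside 0.00 over all genes tested.

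Hist1h4c (chromosome 13, 23697635 to 23698454, minus strand) differed most. It stood at 11.9, 14.6 and 13.03 CPM in AKR and at 41.2, 41.1 and 41.8 CPM in B6N, on 160 to 209 and 587 to 601 reads. No AKR library came near a B6N library, and the difference was -1.66 (log2, SE 0.08, edgeR adjusted p = 9.5e-12). In naive libraries it had 12 reads in all in each strain. The difference between the strains in its change was -1.73 (SE 0.67) and did not pass the test (edgeR adjusted p = 0.16; 0.0382 to 0.671 over the alternatives, with a call only without naive AKR replicate 4).

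Hist4h4 (chromosome 6, 136801553 to 136804415, minus strand), the only member on its chromosome, went the opposite way. It stood at 16.7, 18.2 and 18.7 CPM in AKR and 6.38, 5.95 and 7.08 CPM in B6N, without overlap (log2 1.46, SE 0.11, edgeR adjusted p = 6.1e-09). In naive libraries it had 10, 10, 10 and 9 reads in AKR and 8, 2, 6 and 7 in B6N. Hist1h4a was also higher in AKR, at 10.6, 13.5 and 11.4 CPM against 7.34, 7.28 and 6.94 CPM (log2 0.71, SE 0.12, edgeR adjusted p = 0.00023). By contrast Hist1h4d, the most read H4 gene, differed by 0.10 (SE 0.06, edgeR adjusted p = 0.31). The calls of Hist1h4c, Hist4h4 and Hist1h4a held under all 13 alternatives run for each. Summed over all H4 genes the strains overlapped, and of the 12 H4 genes tested 9 had a value above 0 and 3 below.

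Hist1h3a, an H3 gene, stood at 1.11, 0.836 and 1.16 CPM in AKR and 1.99, 1.89 and 2.05 CPM in B6N (log2 -0.94, SE 0.25, edgeR adjusted p = 0.012), on 12 to 16 and 27 to 29 reads. The H2A gene Hist1h2ac stood at 1.48, 1.25 and 1.24 CPM in AKR and 2.40, 2.45 and 1.91 CPM in B6N (log2 -0.77, SE 0.23, edgeR adjusted p = 0.024). Neither gene's strains overlapped, but both calls were lost under some settings. Hist1h3a lost its call under 2 of 13 alternatives (adjusted p 0.0072 to 0.0967), DESeq2 and the fit without AKR OFL replicate 2, and Hist1h2ac under 5 of 13 (adjusted p 0.0159 to 0.156). Of the 5 genes called after OFL only Hist1h2ac was tested in naive libraries. The 7 genes lower in naive AKR gave no call after OFL, where Hist1h2bc differed by -0.30 (SE 0.11, edgeR adjusted p = 0.067; called under 3 of 13 alternatives, adjusted p 0.0126 to 0.289), Hist1h1c by -0.07 and Hist2h2be by -0.17. A gene outside the naming rule, Hist1h2bl, chosen after its values were seen, had 15, 10 and 13 reads in AKR and 3, 4 and 1 in B6N, too few to pass the filter.

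**Figure D5:**
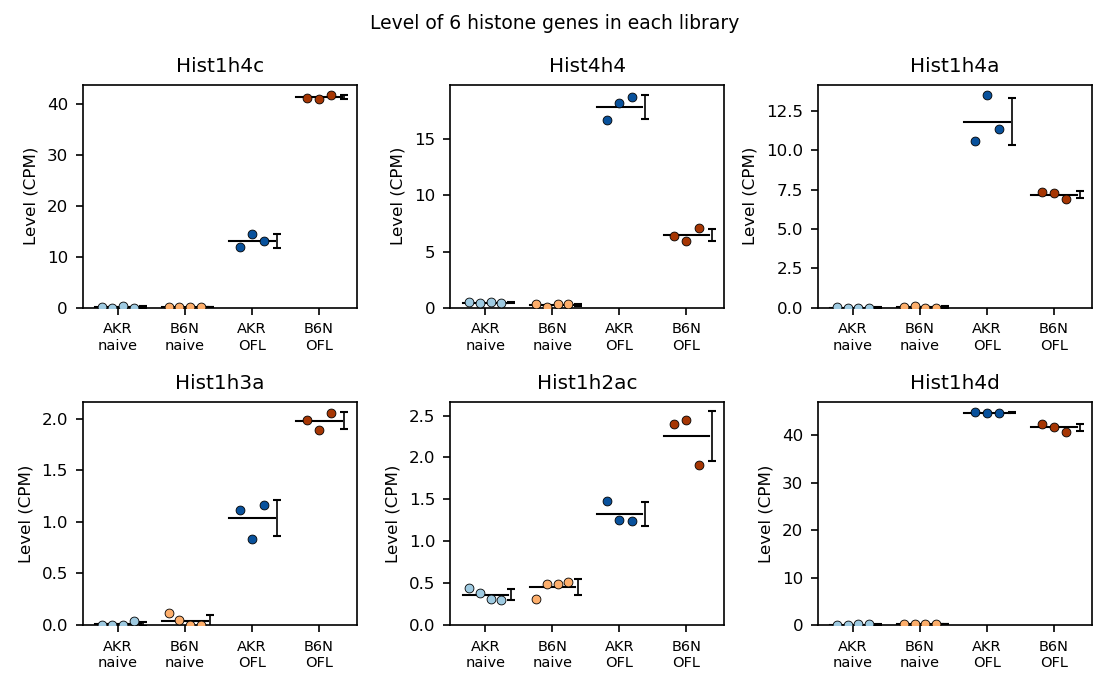
Level (CPM) in each library of the 5 histone genes that differed between the strains after OFL, and of Hist1h4d, which did not pass the test, with the mean as a line and the SD as a bar. Hist1h4c is near 13 CPM in AKR and near 41 CPM in B6N after OFL, and Hist4h4 and Hist1h4a are higher in AKR.

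The interaction asked whether the change from naive to OFL differed between the strains. Of 50 genes tested with edgeR, 6 had a larger change in AKR and 0 a smaller one, where 3.61% of all 20291 genes tested had a larger and 1.54% a smaller change (5.15% in either direction). At an unadjusted p under 0.05 the counts were 13 and 1, and DESeq2 called 5 and 0. Hist1h3d differed by 2.40 (SE 0.57, edgeR adjusted p = 0.011), from 3, 1, 2 and 1 naive reads to 28, 42 and 53 in AKR, and from 11, 6, 7 and 5 to 30, 27 and 32 in B6N. Hist1h4i differed by 1.14 (SE 0.29, edgeR adjusted p = 0.018), Hist1h2be by 0.94 (SE 0.27, edgeR adjusted p = 0.035), Hist2h4 by 0.82 (SE 0.21, edgeR adjusted p = 0.020), Hist1h2bc by 0.43 (SE 0.12, edgeR adjusted p = 0.035) and Hist1h1c by 0.39 (SE 0.11, edgeR adjusted p = 0.049). Of these, 5 are also among the genes lower in naive AKR, and both comparisons use the same naive libraries. The count of 6 rested on single libraries: it was 2 without naive B6N replicate 1 or AKR OFL replicate 2, and 3 without naive AKR replicate 4 (2 larger and 1 smaller) or B6N OFL replicate 2 or 3. Hist1h3d kept its call under all 20 alternatives run for it (adjusted p 0.0019 to 0.0451), and Hist1h1c lost it under 17 of 20. However, Hist1h3d passed the filter only through the OFL libraries, so its value is a description that rests on few naive reads. Of the 11 genes that also passed within naive libraries, 5 had a larger change in AKR and 0 a smaller one.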

How the data were processed

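The authors deposited whole-number read counts per gene, in 1 table of 8 naive and 1 of 6 OFL libraries, which were used here; their CPM tables per sample were not used here. Per the submitters' processing notes, CASAVA, cutadapt 2.7, TopHat2 2.1.1, HTSeq and edgeR were used with GRCm38. Per the labels, total RNA came from a Trizol extraction and a single TruSeq kit was used throughout. GENCODE annotation of GRCm38 named 53274 of 53465 identifiers.

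Counts were tested with edgeR 4.0.16 (limma 3.58.1, R 4.3.3) by the quasi-likelihood test, after filterByExpr and TMM scaling, with Benjamini-Hochberg adjustment over all genes tested and a threshold of 0.05. The strains were compared (AKR minus B6N) in a separate fit for each condition, and OFL minus naive differences and the interaction in 1 fit of 14 libraries. DESeq2 1.42.0, other scalings and filters, each library left out and a replicate block were alternatives. The fits were tested on simulated data. Labels do not say that libraries come from separate animals, so p-values measure only the spread between libraries. Folds from summed reads have exact 95% counting intervals.

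Genes named were the 3 most read of each type, those called in the strain comparisons and the interaction, and up to 6 with the largest change each way after OFL. From each list, up to 3 called genes with the smallest p were eligible. The members, lists and rules were chosen with earlier results of these data known. Replicate numbers did not pair the libraries (correlation of same-numbered deviations -0.043 to 0.044).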

Additional observations from a re-analysis of the deposited data

Results flagged for a closer look

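Among 53 sets of 4 naive values tested for a library far from the other 3, 10 stood out, and most rest on 1 to 3 reads. The nominal chance rate of about 1 in 20 does not apply to such counts, since a set with reads in only 1 library is always picked. The number picked is therefore not read against chance. In naive AKR a single library held all reads of Hist1h2ak (0.0518 CPM), Hist1h3i (0.13 CPM), Hist1h3a (0.0433 CPM), Hist1h4a (0.0492 CPM) and Hist1h4b (0.0518 CPM), and the other 3 libraries had none. In naive B6N a single library held all reads of Hist1h3i (0.0859 CPM). Hist1h2ac was lower in 1 B6N library, at 0.315 CPM, as was Hist4h4, at 0.0900 CPM. Hist1h4n was at 0.0 CPM in 1 B6N library. The share of counts held by all histone genes was higher in 1 naive B6N library, at 0.00634%.

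The change from naive to OFL differed between the strains by edgeR's interaction test in 6 genes, all larger in AKR. The log2 differences were 2.40 for Hist1h3d, 1.14 for Hist1h4i, 0.94 for Hist1h2be, 0.82 for Hist2h4, 0.43 for Hist1h2bc and 0.39 for Hist1h1c. Hist1h3d passed the filter only through the OFL libraries.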

How the results depend on the processing

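Over 87 results for named genes and 1599 values under alternatives, 1523 kept their direction and their side of the threshold, 57 lost a call, 6 gained one and 13 changed sign. Among the counts of histone genes called, the strain difference in naive libraries (7) became 12 with all 14 libraries in 1 fit and 4 among genes with at least 80% of stretches in no other gene. After OFL the count of 5 became 3 with DESeq2, 8 with no filter and 2 among those genes. For OFL minus naive (49 in AKR, 46 in B6N) it was 10 and 10 among those genes, and for the interaction (6) it was 3. Leaving out 1 library gave 6 to 7, 4 to 7, 48 to 51, 46 to 49 and 2 to 6. The cause was not tested, except that fewer genes are counted among the 80% genes. Without Hist1h4d, Hist1h1c and Hist1h2bc, the most read, the mean share of counts was 0.00295% in naive AKR, 0.00368% in naive B6N, 0.0286% in AKR after OFL and 0.0284% in B6N after OFL. With a library left out the shares were 0.00458% to 0.00465%, 0.00614% to 0.00622%, 0.0358% to 0.0370% and 0.0360% to 0.0364%.

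The values that changed sign were all uncalled and changed with 1 library left out. The strain difference after OFL of Hist1h1d ranged from -0.09 to 0.10 and that of Hist1h2ak from -0.11 to 0.14. OFL minus naive in AKR of Hist3h2ba ranged from -0.02 to 0.08. The interaction ranged from -0.34 to 0.65 for Hist2h2ac and from -2.41 to 2.28 for Hist1h3i, both on a few naive reads. A replicate block, which the numbers do not support as a pairing, gave 7, 5, 48, 46 and 4 calls. Depth limits most naive values: 9 to 12 of the 70 genes had 10 reads in a naive library, against 43 to 48 in an OFL library.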
